A study of Arabidopsis thaliana with 4 samples.

Results

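The transcriptome described here is that of guard cells of wild-type (WT) Arabidopsis thaliana seedlings at 12 days post germination. It comprises both WT libraries of a series of 4 samples; the other 2, from fama-1 plants with FAMA-LGK under the FAMA promoter, were not used. Per the labels' protocols, seedlings were grown at 22 °C, aerial tissue was turned into protoplasts (cells freed of their walls), the guard cells were isolated from these by FACS (sorting by fluorescence), and RNA was amplified with low-input kits. The marker behind the sort is not given in the sources used here, and nothing in the labels says that the libraries came from separate plantings, so the spread between them may be technical. Of the 33602 genes in the table, the 33323 encoded in the nucleus were kept and 279 organelle genes were set aside. Values are in TPM (transcript abundance per fixed library total), which corrects read counts for gene length and for the library total. Pairs of values are WT replicate 1 followed by WT replicate 2, errors are SD with n = 2, and ranks run from the highest mean TPM of the 33323 genes. With 1 group, levels were described and nothing was tested.

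Guard cells are the paired cells around each stomatal pore. They open the pore by pumping out protons, taking up potassium, anions and sugars and swelling, and close it when the hormone abscisic acid (ABA) or high CO2 activates anion channels that release these solutes. They arise from a lineage in which the related basic helix-loop-helix factors SPCH, MUTE and FAMA act in turn, each with the partners SCRM or SCRM2, and they store myrosinases, enzymes that turn glucosinolates into defence compounds.

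Nuclear transcripts made up 72.2% and 74.7% of TPM. Ribosomal RNA of 4 nuclear genes accounted for 24.2% and 27.1% of all TPM and protein-coding genes for 46.8% and 46.4%. At least 1 TPM in both libraries was found for 13297 nuclear genes (39.9%), among them 12934 of 26712 protein-coding genes (48.4%). Another 11891 nuclear genes (35.7%) were at 0 in both libraries, 6688 of them protein-coding. The mean reached 10 TPM for 5785 genes, 100 TPM for 632 and 1000 TPM for 59, while the median over all nuclear genes was 0.440 TPM. A read gave about 94.3 and 83.0 TPM divided by the gene length in bases. Thus 3 reads on a gene of 1500 bases gave 0.189 and 0.166 TPM. The libraries correlated across genes at a Pearson r of 0.965 (log2(TPM + 1), 14370 genes averaging 1 TPM or more; genes are not independent replicates). Of these genes, 647 (4.50%) lay over 2-fold apart on that scale, and only 42 did so among those with a mean of at least 10 TPM.

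**Figure D1:**
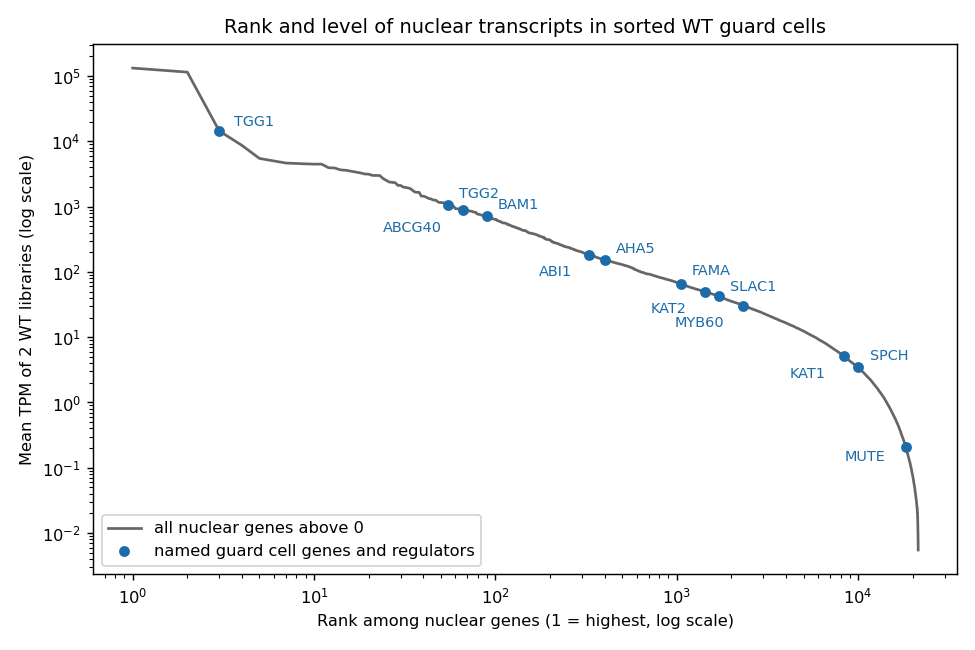
Mean TPM of both WT libraries (log scale) against rank among nuclear genes (log scale), for all nuclear genes above 0 (line) and for 13 named guard cell genes and regulators (points). TGG1 sits at rank 3, FAMA at rank 1049 and MUTE at rank 18306.

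The transcript pool was concentrated in few genes. Without ribosomal RNA, the 10 highest nuclear genes held 12.3% of the remaining nuclear TPM, the 30 highest 23.5%, the 100 highest 37.5% and the 1000 highest 67.2%. With ribosomal RNA kept, the 100 highest held 59.0%. The membership of the top was shared between libraries, with 25 genes common to the 30 highest of each and 91 common to the 100 highest.

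The highest transcript outside ribosomal RNA came from TGG1 (AT5G26000), a myrosinase stored in guard cells. It was at 16419.9 and 12487 TPM, a mean of 14454 ± 2781 TPM, and held 3.42% and 2.63% of nuclear TPM without ribosomal RNA. The next gene, AT2G29500, encodes a small heat shock protein of the HSP20 type and was at 7859 and 9510.3 TPM. The libraries did not overlap for these genes: the lower TGG1 value lay above the higher AT2G29500 value.

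Heat shock proteins, chaperones that hold or refold damaged proteins, supplied 11 of the 30 highest genes. HSP90.1 (AT5G52640), a cytosolic chaperone of signalling proteins, was at 4389.7 and 4922 TPM. HSP70 (AT3G12580), a general folding chaperone, was at 3738 and 4169.7 TPM, and AT3G09440 of the same family at 1890.5 and 2040.1 TPM. HSP101 (AT1G74310), which pulls proteins out of aggregates, was at 2039.6 and 2723 TPM. Of the small heat shock proteins, HSP17.4 was at 3859 and 5186 TPM, HSP17.6A at 3083 and 4131 TPM and HSP17.6II at 2239 and 3762 TPM. Of the HSP20-type genes, AT1G53540 was at 2627 and 4149 TPM, AT1G07400 at 2928 and 3647 TPM and AT1G54050 at 2374 and 3639.9 TPM. All 11 were higher in WT replicate 2 than in replicate 1.

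A further 4 of the 30 work with chaperones or in heat responses. Hop3 (AT4G12400), a co-chaperone linking HSP70 and HSP90, was at 3439.6 and 3874 TPM. The transcriptional coactivator MBF1C (AT3G24500), known for thermotolerance, was at 2449.8 and 3561 TPM. AT5G48570 (synonym FKBP65), a peptidyl-prolyl isomerase, was at 2579 and 2815 TPM and the co-chaperone BAG6 at 1925 and 2311 TPM. All 4 were also higher in WT replicate 2.

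Over the annotation, 126 nuclear genes had heat shock or HSP20 in their product name, a grouping made after the values were seen. Heat shock transcription factors were left out, but genes named DNAJ heat shock and a heat shock protein-binding protein were included. Of the 126 genes, 94 (74.6%) reached 1 TPM in both libraries, 61 reached 10 TPM and 14 (11.1%) were at 0 in both, with a median of 10.6 TPM. Over protein-coding genes 48.4% reached 1 TPM, 19.6% reached 10 TPM and 25.04% were at 0, with a median of 1.22 TPM. The 126 genes held 10.3% and 13.5% of nuclear TPM without ribosomal RNA. Of the 64 with a mean of at least 10 TPM, 46 were higher in replicate 2 (median log2 ratio of replicate 2 to replicate 1 of 0.19). Across all 5785 nuclear genes at that level, 2250 (38.9%) were higher in replicate 2 and the median was -0.08. No intact tissue was analysed here beside the sorted protoplasts, so levels in the plant and levels after wall digestion cannot be told apart for these or any other genes.

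Glutathione enzymes, which detoxify reactive compounds and peroxides, gave 4 of the 30. Of the glutathione S-transferase genes, GSTF8 was at 5895 and 5056 TPM, GSTU19 at 3137 and 3153 TPM and GSTU5 at 2101 and 2611 TPM, and the glutathione peroxidase gene GPX6 was at 2411 and 2651 TPM. The GSTF8 values lay above those of the other 3 in both libraries. Over all 56 annotated glutathione S-transferases, 37 (66.1%) reached 1 TPM in both libraries and 7 (12.5%) were at 0, against 48.4% and 25.04% of protein-coding genes. Together the 56 held 3.58% and 3.46% of nuclear TPM without ribosomal RNA.

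Defence and jasmonate genes gave 3 of the 30. The elicitor-activated alcohol dehydrogenase gene ELI3-2 was at 3412 and 2924 TPM. PEN3 (AT1G59870), an ABC transporter of the plasma membrane that exports defence compounds, was at 2756 and 1901 TPM. JAZ1, a repressor of jasmonate signalling that jasmonate itself induces, was at 2419 and 1451 TPM. All 3 were lower in WT replicate 2 than in replicate 1.

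The remaining 7 of the 30 had varied or unknown functions. SAG24 (AT1G66580), with the synonym RPL10C for a large-subunit ribosomal protein, was at 4783 and 5258 TPM. The glycine-rich protein gene AT1G04800 was at 5100.2 and 3863 TPM; it shares 40.6% of its exon length with AT1G04790 on the opposite strand, which was at 8.08 and 10.3 TPM. AT1G79245, annotated as a transcribed pseudogene, was at 3933 and 3879 TPM. Of neighbouring leucine-rich repeat genes, AT1G33600 was at 2661 and 1567 TPM and AT1G33590 at 2248 and 1749 TPM. AT4G02940, of the 2-oxoglutarate-dependent oxygenase family, was at 2139 and 1636 TPM. AT2G01021, an uncharacterized gene of 102 bases whose locus number falls beside those of ribosomal RNA genes, was at 1479 and 5505 TPM, the widest gap between libraries of the 30.

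**Figure D2:**
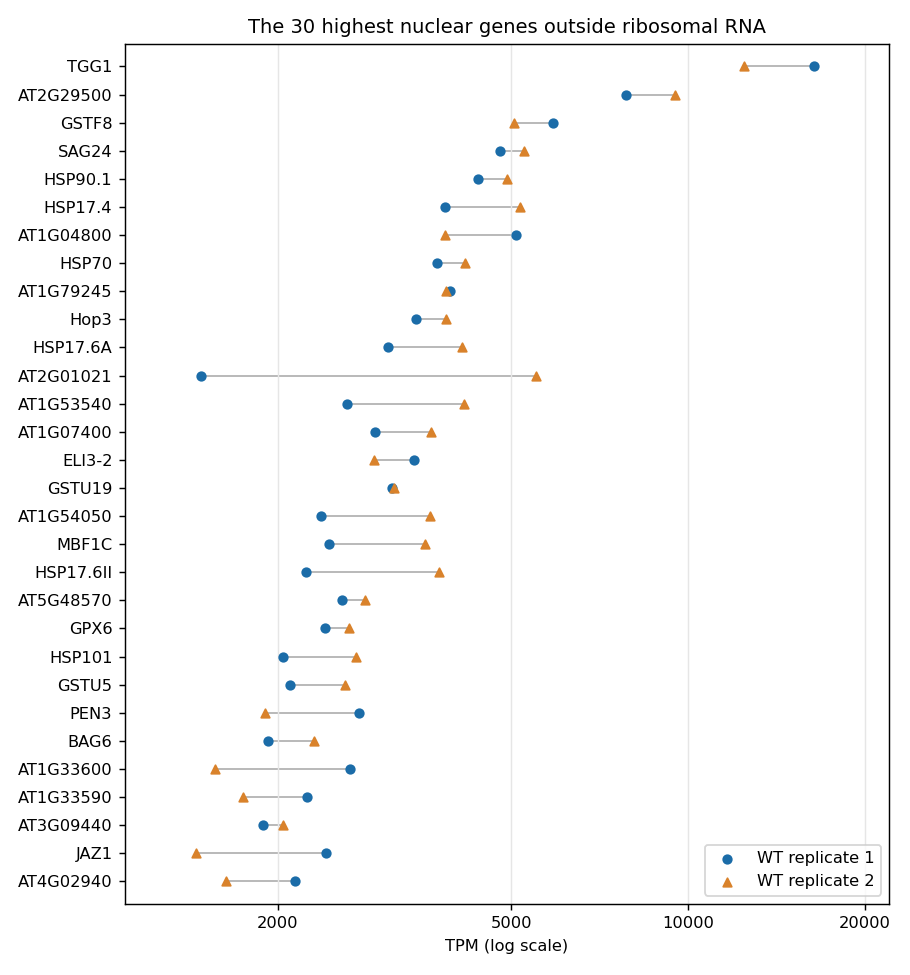
TPM (log scale) of the 30 highest nuclear genes outside ribosomal RNA in WT replicate 1 (circles) and WT replicate 2 (triangles), ordered by mean. TGG1 lies right of all others, and AT2G01021 has the widest gap, at 1479 and 5505 TPM.

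Taking the 10 lists of guard cell function together, 90 of 110 genes (81.8%) reached 1 TPM in both libraries, 56 (50.9%) reached 10 TPM and 5 were at 0 in both, with a median of 11.4 TPM. Among all nuclear genes 39.9% reached 1 TPM and 16.1% reached 10 TPM, with a median of 0.440 TPM, and among protein-coding genes 48.4% and 19.6%, with a median of 1.22 TPM. The lists were chosen with earlier results of these data known, so these counts are a description of these libraries.

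**Figure D3:**
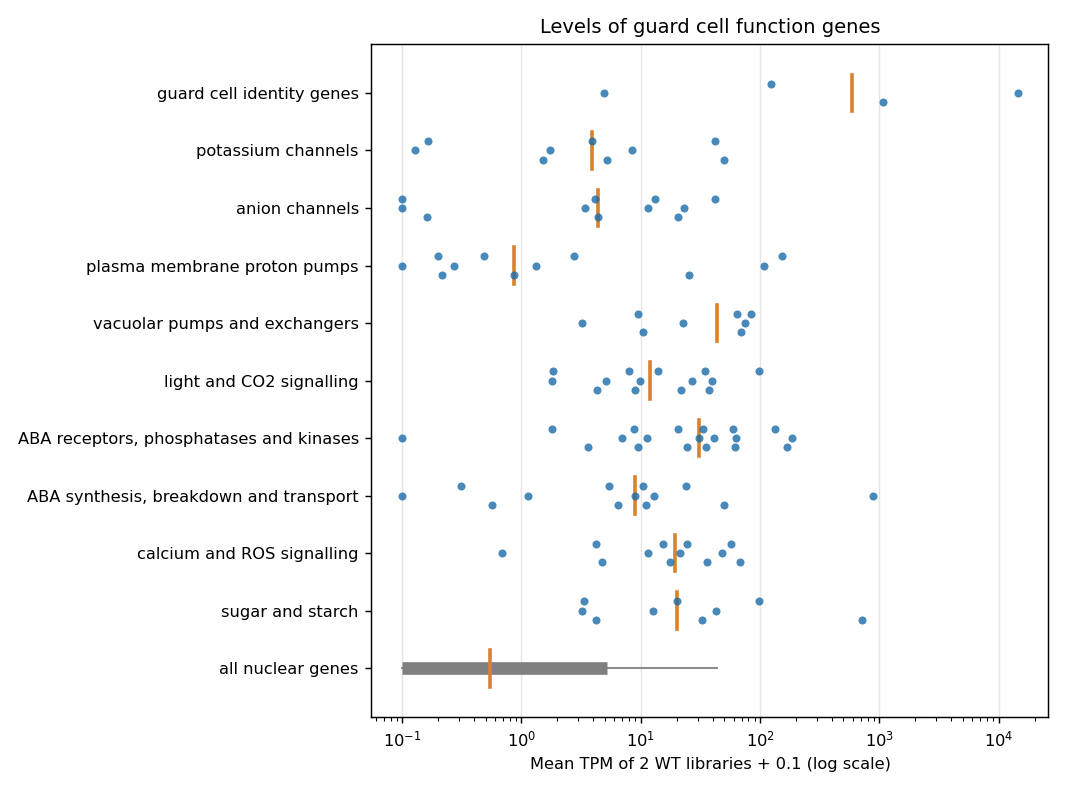
Mean TPM of both WT libraries plus 0.1 (log scale) for each gene of 10 guard cell function lists (points; orange bars are list medians), beside all nuclear genes (thin line 5th to 95th percentile, thick bar quartiles). The identity genes reach highest, with TGG1 at 14454 ± 2781 TPM, and the proton pump list has the lowest median, 0.772 TPM.

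Of the 4 identity genes, all were detected. TGG2 (AT5G25980), the second myrosinase, was at 1139 and 992 TPM, rank 55. TGG1 stood 14.4 and 12.6 times above it in the same libraries. AT1G22690, a gibberellin-regulated family gene, was at 133 and 114 TPM, and AT5G06970, a protein with a Munc13 homology domain, was at 5.53 and 4.15 TPM.

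Among potassium channels, KAT2 and GORK stood well above the rest. KAT2 (AT4G18290), an inward channel that admits potassium during opening, was at 55.2 and 44.6 TPM, and GORK (AT5G37500), the outward channel of closure, at 37.3 and 46.8 TPM. These ranges overlapped, so their order is not set by these libraries. KAT1 (AT5G46240), the other inward channel best known from guard cells, was at 5.97 and 4.20 TPM, and KAT2 exceeded it 9.25 and 10.6 times. The regulatory subunit KC1 was at 9.53 and 7.15 TPM and the inward channel AKT1 at 5.29 and 2.298 TPM. SKOR, the outward channel of root vasculature, was at 1.78 and 1.47 TPM. AKT2, a phloem channel, was at 0 and 0.131 TPM, and AKT5 was at 0 and 0.0583 TPM, under the 0.0984 and 0.0866 TPM that 3 reads on it would give.

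Of the 11 anion channel genes, 8 reached 1 TPM. SLAC1 (AT1G12480), the slow anion channel needed for closure, was at 39.3 and 45.0 TPM, rank 1705. The chloride channel family member CLC-A, of the vacuolar membrane, followed at 23.4 and 22.8 TPM, and its relative CLC-C at 21.4 and 19.3 TPM. ALMT12 (AT4G17970), the rapid anion channel, was at 11.6 and 14.6 TPM, and the slow-type relative SLAH3 at 14.6 and 8.34 TPM. The last 2 overlapped, whereas SLAC1 stood 2.70 and 5.40 times above SLAH3. Of the malate transporter family genes, AT1G25480 was at 4.74 and 3.87 TPM, ALMT9 at 4.56 and 3.52 TPM and ALMT6 at 3.02 and 3.65 TPM. SLAH2 was at 0.120 and 0 TPM. SLAH1 and SLAH4 were at 0 in both libraries, where 3 reads would have given 0.189 and 0.167 TPM for SLAH1.

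Of the 11 plasma membrane proton pumps, which energize potassium uptake, 4 (36.4%) reached 1 TPM in both libraries and 3 (27.3%) reached 10 TPM. Among protein-coding genes these shares were 48.4% and 19.6%. AHA5 (AT2G24520) was at 156 and 150.0 TPM, AHA1 (AT2G18960) at 124 and 91.8 TPM and AHA2 (AT4G30190) at 28.4 and 21.8 TPM, and their ranges did not overlap. AHA5 exceeded AHA1 1.26 and 1.63 times, and AHA1 exceeded AHA2 4.36 and 4.21 times. AHA9 followed at 3.30 and 2.00 TPM and AHA11 at 0.922 and 1.55 TPM. AHA8 was at 0.629 and 0.914 TPM and AHA10 at 0.298 and 0.467 TPM. AHA4 was at 0.0293 and 0.309 TPM, AHA3 at 0.205 and 0.0257 TPM and AHA7 at 0.196 and 0 TPM, and AHA6 was at 0 in both libraries.

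All 8 genes of vacuolar pumps and exchangers, which load solutes into the vacuole, were detected, with a list median of 43.1 TPM. NHX2 (AT3G05030), a potassium and sodium exchanger of the vacuolar membrane, was at 74.8 and 92.5 TPM, 8.16 and 8.08 times its relative NHX1 at 9.17 and 11.4 TPM. VHA-A, the catalytic subunit of the vacuolar proton ATPase, was at 87.0 and 63.8 TPM. Of the water channel genes, GAMMA-TIP was at 63.5 and 74.98 TPM and DELTA-TIP at 9.96 and 8.84 TPM. The proton pyrophosphatase gene AVP1 was at 65.5 and 61.7 TPM. Of the ATPase membrane subunits, VHA-A3 was at 25.6 and 19.7 TPM and VHA-A2 at 3.76 and 2.47 TPM. The 4 highest, NHX2, VHA-A, GAMMA-TIP and AVP1, followed each other without gaps larger than the spread between libraries.

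All 14 genes of light and CO2 signalling were detected, with a median of 11.8 TPM. The kinase gene MPK4 (AT4G01370) was highest at 82.6 and 113 TPM; 22.3% of its exon length is shared with AT4G01380 on the opposite strand, at 19.7 and 14.7 TPM. MPK12 (AT2G46070), a kinase that restrains HT1 in the CO2 response, was at 34.7 and 34.7 TPM, and HT1 (AT1G62400), the kinase that keeps stomata open at low CO2, at 40.2 and 34.3 TPM. Of the carbonic anhydrase genes, whose enzymes convert CO2 to bicarbonate, CA1 was at 40.6 and 38.3 TPM and CA4 at 27.6 and 25.6 TPM. MPK9, a kinase acting in ABA responses of guard cells, was at 25.2 and 17.7 TPM. CA1 overlapped HT1 and HT1 overlapped MPK12, whereas CA1 lay above MPK12 in both libraries.

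Blue light receptors lay below MPK12 and HT1. PHOT2 (AT5G58140), a phototropin, was at 14.2 and 13.5 TPM, and its paralogue PHOT1 (AT3G45780) at 1.36 and 2.02 TPM. The PHOT2 exons share 38.8% of their length with AT5G58150 on the opposite strand, which was at 0 in both libraries. BLUS1, a kinase that phototropins phosphorylate, was at 2.19 and 1.304 TPM. Of the cryptochrome genes, CRY2 was at 8.86 and 7.01 TPM and CRY1 at 4.84 and 5.17 TPM. Of the protein kinase genes, AT5G50000 was at 8.74 and 10.8 TPM and AT3G01490 at 3.31 and 5.06 TPM, and AT4G22790, of the MATE efflux family, at 10.3 and 7.34 TPM.

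Of 19 ABA receptors, phosphatases and SnRK2 kinases, 17 reached 1 TPM and 12 reached 10 TPM, with a median of 30.5 TPM. In this pathway the receptor traps the phosphatase, which frees the kinase to activate SLAC1. The 5 highest were from all 3 classes. Of the phosphatase genes, ABI1 (AT4G26080) was at 180.3 and 189 TPM and ABI2 at 54.4 and 68.3 TPM, and the kinase gene SNRK2.3 (AT5G66880) at 150.3 and 184 TPM. Of the receptor genes, PYL4 (AT2G38310) was at 140.4 and 126 TPM and PYL2 (AT2G26040) at 55.8 and 70.5 TPM. OST1 (AT4G33950), the kinase best known from guard cells and added here after its value was seen, was at 40.6 and 42.0 TPM, and SNRK2.3 exceeded it 3.70 and 4.37 times. The phosphatase gene AHG1, known from seeds, was at 0 in both libraries.

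Genes of ABA supply spanned a wide range. ABCG40 (AT1G15520), a plasma membrane importer of ABA, was at 976 and 801 TPM, rank 66. The other importer of the list, NPF4.6, was at 53.3 and 46.2 TPM, and ABCG40 exceeded it 18.3 and 17.3 times. The transporter gene ABCG22 was at 8.79 and 8.77 TPM, and ABCG25, an exporter, at 0.374 and 0.549 TPM. Synthesis genes lay below ABCG40 and NPF4.6, with ABA1 at 21.6 and 26.3 TPM, ABA3 at 11.1 and 10.8 TPM, ABA2 at 10.8 and 9.90 TPM and AAO3 at 6.21 and 4.40 TPM. NCED3, the dioxygenase that limits synthesis under drought, was at 7.13 and 5.67 TPM, and its relative NCED5 at 0.419 and 0 TPM. Of the hydroxylase genes that break ABA down, CYP707A3 was at 14.2 and 11.3 TPM, CYP707A1 at 0.945 and 1.12 TPM and CYP707A2 at 0 in both libraries.

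Of 12 genes of calcium and reactive oxygen signalling, 11 reached 1 TPM. RBOHD (AT5G47910), an oxidase that makes superoxide, was at 76.5 and 60.03 TPM, and RBOHF at 4.66 and 4.59 TPM. CBL1, a calcium sensor, was at 46.5 and 66.5 TPM, its relative CBL9 at 17.1 and 18.1 TPM and their partner kinase CIPK23 at 24.7 and 23.5 TPM. Of the calcium-dependent kinase genes, CPK8 was at 52.3 and 43.8 TPM and CPK10 at 38.2 and 33.6 TPM. Of the kinases known to act on anion channels, CPK3 was at 24.96 and 17.38 TPM, CPK23 at 16.5 and 14.1 TPM, CPK6 at 11.9 and 10.7 TPM and CPK21 at 4.34 and 3.82 TPM. GHR1, a receptor-like protein of the SLAC1 pathway, was at 0.119 and 1.04 TPM, the only member of this list under 1 TPM on average.

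Of 9 sugar and starch genes, all were detected. BAM1 (AT3G23920), a beta-amylase that breaks down guard cell starch during opening, was at 668 and 768 TPM, rank 90. AMY3, the alpha-amylase that acts with it, was at 2.52 and 3.96 TPM, so that BAM1 stood 265 and 194 times above it. Of the hexose importer genes, STP1 was at 102 and 93.3 TPM and STP4 at 34.0 and 31.3 TPM, and the sucrose synthase gene SUS3 at 47.1 and 38.2 TPM. Of the sucrose transporter genes, SUC3 was at 20.01 and 19.9 TPM and SUC1 at 3.50 and 2.74 TPM. The cell wall invertase gene ATBFRUCT1 was at 13.7 and 11.2 TPM and PGI1, a chloroplast isomerase of starch synthesis, at 4.80 and 3.43 TPM.

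Of 19 regulators of the stomatal lineage, 12 (63.2%) reached 1 TPM in both libraries and 4 (21.1%) reached 10 TPM. Among protein-coding genes these shares were 48.4% and 19.6%, so the share at 10 TPM was near that of all coding genes. SCRM (AT3G26744) was highest at 150.4 and 153 TPM, followed by FAMA (AT3G24140), which acts at the last division and in guard cell fate, at 66.1 and 65.6 TPM. TMM, a receptor-like protein that patterns stomata, was at 45.7 and 46.0 TPM, RBR1, the retinoblastoma protein that binds FAMA, at 16.7 and 15.6 TPM, and the protease gene SDD1 at 12.3 and 8.09 TPM. These 5 were separated by more than the spread between libraries. SPCH (AT5G53210), which starts the lineage and was also added after its value was seen, was at 4.05 and 2.88 TPM, and FAMA exceeded it 16.3 and 22.8 times. MUTE (AT3G06120), which ends stem-like divisions, was at 0.115 and 0.302 TPM, where 3 reads would give 0.300 and 0.265 TPM. Of the receptor genes, ERL1 was at 0.442 and 0.340 TPM and ER at 0.148 and 0.494 TPM. EPFL9, the peptide that promotes stomata, was at 0 and 0.180 TPM. BASL, the polarity gene of the dividing lineage, was at 0 in both libraries, where 3 reads would have given 0.223 and 0.196 TPM.

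Of 14 transcription factors known from guard cells or ABA responses, 13 (92.9%) reached 1 TPM, against 48.4% of protein-coding genes. MYC2, a jasmonate factor, was at 98.1 and 84.6 TPM, but 98.5% of its exon length is shared with AT1G32630 on the opposite strand, at 11.7 and 7.83 TPM. STOP1 (AT1G34370), a zinc finger factor, was at 75.8 and 72.2 TPM. Of the ABA response factor genes, ABF3 was at 60.4 and 57.0 TPM, ABF4 at 40.2 and 36.6 TPM, ABI5 at 14.96 and 8.68 TPM and ABF2 at 5.69 and 6.03 TPM. MYB60 (AT1G08810), a factor largely specific to guard cells, was at 35.6 and 25.6 TPM, and SCAP1 (AT5G65590), a Dof factor of guard cell maturation, at 19.1 and 17.36 TPM. MYB44 was at 24.8 and 18.9 TPM and the MADS factor AGL16 at 18.1 and 17.7 TPM. Of the epidermal homeodomain genes, ATML1 was at 9.44 and 7.19 TPM and HDG2 at 6.77 and 7.93 TPM, and GTL1 was at 9.27 and 7.40 TPM. MYB61, reported to act in stomatal closure, was at 0 in both libraries.

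The highest genes whose annotation holds a transcription factor term were known mostly from stress responses. DREB2A (AT5G05410), a factor of drought and heat responses, was at 1332 and 1218 TPM, and HSFA2 (AT2G26150), a heat shock factor, at 1235 and 1274 TPM. These overlapped. Of the NAC factor genes, NAC102 was at 1047 and 978 TPM, ATAF2 at 791 and 736 TPM and ATAF1 at 669.8 and 625 TPM. WRKY33, a defence factor, was at 1018 and 635 TPM, and the ethylene response factor gene ERF2 at 819 and 639 TPM. ZAT12, a zinc finger factor of oxidative stress, was at 561 and 609 TPM, and ABR1, a repressor of ABA responses, at 443 and 422 TPM.

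The next 11 of the 20 highest genes so annotated ranged from a mean of 351 ± 26.3 TPM for WRKY15 to 171 ± 14.96 TPM for NAC052. Besides WRKY15 at 369.9 and 333 TPM, they comprised 3 more WRKY genes, WRKY45 at 256 and 216 TPM, WRKY6 at 230.5 and 172 TPM and WRKY75 at 228 and 161 TPM. ERF-1, an ethylene response factor, was at 279 and 232 TPM, and the B-box gene AT2G47890 at 329 and 300.0 TPM. MYB74 was at 266 and 149.8 TPM, and AT1G10585 of the basic helix-loop-helix family at 239 and 194 TPM. The auxin response repressor gene IAA16 was at 173 and 199.7 TPM and NAC2 at 188 and 183 TPM, above NAC052 at 182 and 161 TPM. The annotation terms miss some known factor genes, among them ZAT10, CCA1, RAP2.4 and RVE1, whose means also lay above that of NAC052. SCRM was the highest gene of the stomatal lineage and guard cell transcription factor lists, at rank 404 of nuclear genes, against rank 45 for DREB2A.

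**Figure D4:**
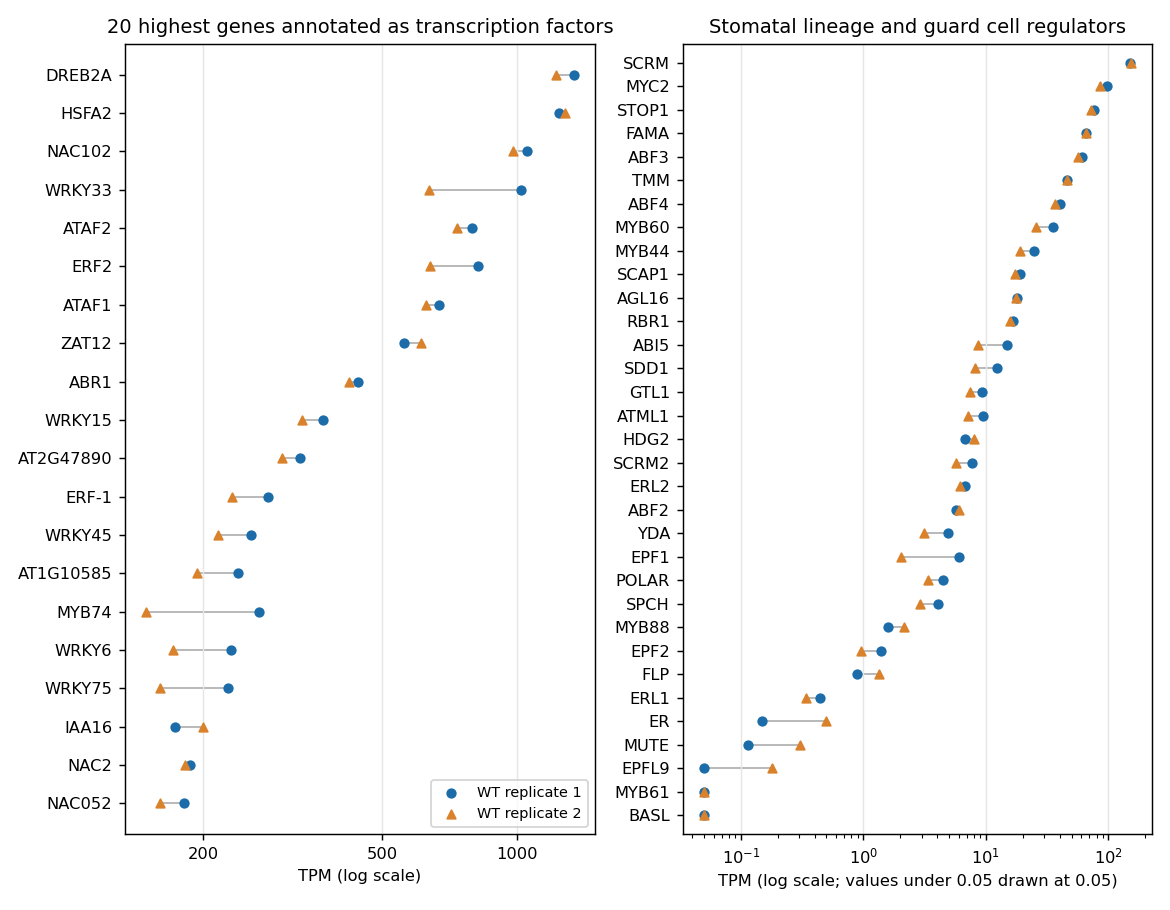
TPM (log scale) in WT replicate 1 (circles) and WT replicate 2 (triangles) for the 20 highest genes annotated as transcription factors (left) and for the regulators of the stomatal lineage and guard cells (right; values under 0.05 are drawn at 0.05). SCRM, at 150.4 and 153 TPM, would come below NAC052, the lowest gene on the left.

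Markers of other cell types were measured in the same libraries, and their part in the levels above was not tested. In bulk RNA, fewer cells of a type and less RNA per cell cannot be told apart. All 14 mesophyll and photosynthesis genes were above 10 TPM in both libraries, against 19.6% of protein-coding genes. Their median was 49.0 TPM and their sums were 837 and 912 TPM. Guard cells hold chloroplasts too. RBCS1A, a small subunit of Rubisco, was at 190.1 and 201 TPM, RBCS3B at 19.2 and 18.0 TPM, RBCS2B at 15.9 and 15.8 TPM and RBCS1B at 12.0 and 12.3 TPM. Of the light-harvesting genes, LHCB1.3 was at 134 and 164 TPM and LHCB1.1 at 45.6 and 59.97 TPM, but they are 96.1% identical over 66.9% of the LHCB1.3 exons, so reads may have been split between them. LHCA1 was at 84.0 and 78.8 TPM, LHCB4.1 at 71.0 and 68.2 TPM, LHCB3 at 36.5 and 34.1 TPM, LHCB6 at 35.9 and 34.6 TPM and LHCB2.1 at 28.2 and 41.7 TPM. Of the photosystem genes, PSAD-1 was at 66.4 and 76.9 TPM and PSBO1 at 59.6 and 54.6 TPM, and RCA, which activates Rubisco, at 39.0 and 51.5 TPM.

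All 8 epidermis markers were detected, against 48.4% of protein-coding genes. KCS6, an enzyme of wax synthesis, was at 115 and 92.8 TPM, the lipid transfer protein gene LTPG1 at 54.0 and 49.2 TPM and FDH, of cuticular lipid synthesis, at 61.5 and 39.7 TPM. CER5, a wax exporter, was at 25.7 and 19.2 TPM. PDF1 was at 7.44 and 6.55 TPM, PDF2 at 7.21 and 5.84 TPM, BDG1 at 6.24 and 4.59 TPM and LTP1 at 4.54 and 3.41 TPM. Guard cells are epidermal cells, so this list does not separate them from pavement cells.

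No marker of vascular, trichome, root hair, meristem, flower or seed cells reached 1 TPM in both libraries, against 48.4% of protein-coding genes. Of protein-coding genes, 25.04% were at 0 in both. The markers were not all near 0. The means of IRX3, CESA4, XCP1 and GL1 lay above the median nuclear gene, 0.440 TPM. All marker means lay under 1.22 TPM, the median of protein-coding genes. Of 8 phloem and xylem genes, 0 reached 1 TPM in both libraries and 3 were at 0; the highest, IRX3, a cellulose synthase of xylem walls, was at 0.224 and 1.06 TPM. CESA4 was at 0.837 and 0.319 TPM, XCP1 at 0.561 and 0.370 TPM, SEOR1 at 0.0742 and 0.326 TPM and SUC2, the phloem sucrose loader, at 0 and 0.170 TPM; APL, VND7 and CESA8 were at 0. Of 6 trichome and root hair genes, GL1 was at 0.549 and 0.483 TPM, GL3 at 0.489 and 0 TPM and GL2 at 0.158 and 0.0279 TPM, while TRY, RHD6 and EXPA7 were at 0. Of 12 meristem, flower and seed genes, 9 were at 0 in both libraries, namely WUS, CLV3, STM, LFY, AP1, AP3, SEP3, SESA1 and SESA3. AG was at 0.174 and 0.665 TPM, CRA1 at 0.316 and 0 TPM and LEC1 at 0 and 0.0886 TPM, none of them at 1 TPM.

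Of 8 cell division genes, 4 reached 1 TPM in both libraries, with a list median of 1.72 TPM, against 48.4% and 1.22 TPM over protein-coding genes. KN, the syntaxin of cytokinesis, was at 8.39 and 6.55 TPM, with 33.5% of its exon length shared with NPQ1 on the opposite strand at 5.53 and 10.3 TPM. The replication clamp gene PCNA1 was at 5.33 and 6.56 TPM, CDKB2;1 at 3.94 and 1.92 TPM and the mitotic cyclin gene CYCB1;1 at 2.46 and 1.962 TPM. CDKA;1, the main cell cycle kinase, was at 1.46 and 0.995 TPM, CYCD3;1 at 0.573 and 0.807 TPM and CDKB1;1, needed for the last division of the lineage, at 0.783 and 0.276 TPM. CYCD7;1, a cyclin of that division, was at 0 in both libraries.

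Of 12 genes that respond to wounding, touch or protoplast preparation, 11 reached 1 TPM and 9 reached 10 TPM, with sums of 4667 and 3261 TPM. After JAZ1, WRKY33 and ZAT12, given above, came the zinc finger gene ZAT10 at 414 and 327 TPM. Of the calmodulin-like genes, TCH3 was at 84.0 and 84.5 TPM and TCH2 at 10.3 and 9.53 TPM, and the wall enzyme gene TCH4 at 33.6 and 37.7 TPM. Of the jasmonate synthesis genes, LOX3 was at 46.2 and 39.5 TPM and AOS at 10.6 and 9.26 TPM, and the repressor gene JAZ10 at 24.3 and 33.3 TPM. WRKY40 was at 46.0 and 25.3 TPM. VSP2, a storage protein that jasmonate induces in leaves, was at 0 in both libraries.

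As a scale for these levels, the widely used control genes were at 1542 and 1767 TPM (GAPC1, of glycolysis), 892 and 959 TPM (UBQ10, polyubiquitin) and 90.9 and 85.6 TPM (ACT2, actin). PP2AA3, a phosphatase subunit, was at 14.2 and 13.2 TPM and AT4G34270, of the TIP41-like family, at 10.7 and 8.14 TPM. The elongation factor gene AT1G07940 was at 32.5 and 32.2 TPM, but is over 95% identical to AT1G07920 and AT1G07930, at 37.2 and 40.5 TPM and at 37.6 and 45.8 TPM, so its value is uncertain.

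**Figure D5:**
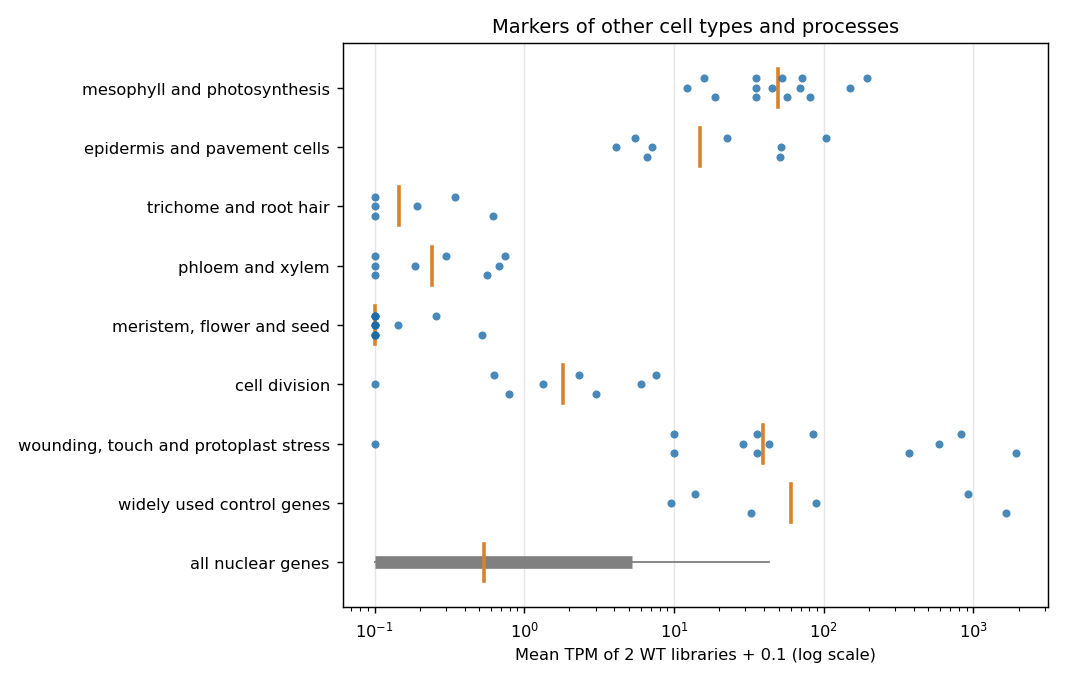
Mean TPM of both WT libraries plus 0.1 (log scale) for each gene of 8 lists of other cell types and processes (points; orange bars are list medians), beside all nuclear genes (thin line 5th to 95th percentile, thick bar quartiles). All 14 mesophyll genes lie above 10 TPM and the 12 meristem, flower and seed genes lie under 1 TPM.

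Some product families were mostly at 0 in both libraries, a grouping made after the values were seen, against 25.04% of all protein-coding genes. Of product families with at least 50 nuclear genes, the ECA1 gametogenesis related family was at 0 in 51 of 51 genes, the self-incompatibility protein S1 family in 57 of 60 and the defensin-like family in 75 of 87. At the other end, tetratricopeptide repeat-like proteins were at 0 in 9 of 268 genes and ARM repeat proteins in 4 of 115. Few zeros did not always mean high levels. At least 1 TPM in both libraries was reached by 41.8% of the tetratricopeptide repeat-like and 79.1% of the ARM repeat genes, against 48.4% of protein-coding genes. Pseudogenes were at 0 in 84.4% of 3911 genes and transfer RNA genes in 83.0% of 623.

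Gene structure also went with level. Protein-coding genes at 0 in both libraries had a median exon length of 1056 bases, and 33.9% of these 6688 genes had a single exon. Of 5059 coding genes between 10 and 100 TPM the median was 1865 bases and 11.3% had a single exon. Above 100 TPM, 22.9% of 615 coding genes had a single exon, with a median length of 1637 bases. Over all 26712 coding genes the values were 1580 bases and 20.8%. A short gene at 0 has a higher detection limit than a long one, since each read weighs more in TPM.

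Beside the overlaps given above, other named genes overlap an opposite-strand gene over at least 10% of their exon length. Whether reads were counted by strand is not given in the sources used here. STP1 shares 12.6% with AT1G11270, at 35.1 and 46.9 TPM. LHCB3 shares 14.98% with ATM2, at 21.3 and 19.3 TPM. For MYB44, CPK10, TCH2, AAO3, ABA2, DELTA-TIP, AT3G09440 and ATAF2 the shared part was 35.4%, 22.6%, 20.9%, 13.8%, 10.2%, 10.1%, 18.9% and 10.3%, and every partner was lower than the named gene in both libraries. Counting annotated genes not analysed here as well, the overlapped part came to 70.9% for HSP17.4, 48.4% for MYB44, 47.6% for CPK10, 43.0% for SLAC1, 41.1% for AT1G80890 and 39.7% for ABA2. It came to 29.1% for ABF4, 26.2% for HDG2, 25.9% for MBF1C, 22.5% for ATAF1, 20.4% for LHCB6 and 20.2% for TCH3.

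The widest gaps between the libraries, among genes averaging 10 TPM or more, ran in both directions. AT2G01021 had the widest, a log2 difference of replicate 2 from replicate 1 of 1.89 at TPM + 1, and AT4G29905, also uncharacterized, had 1.53, at 6.89 and 21.8 TPM. The other 8 of the 10 were lower in replicate 2. AT2G11891, an uncharacterized gene of 168 bases, was at 16.8 and 3.95 TPM and AT1G51405, annotated as myosin-like, at 25.8 and 7.76 TPM. The acyltransferase family gene AT5G39080 was at 50.4 and 16.2 TPM and the leucine-rich repeat gene AT3G17640 at 27.5 and 8.99 TPM. AT1G80890 was at 23.7 and 8.54 TPM, the RING-type gene AT3G10815 at 23.4 and 8.43 TPM and YLS9, of the late embryogenesis abundant family, at 19.8 and 7.13 TPM. AT1G28280, of the VQ motif family, was at 209 and 82.0 TPM. None of the 10 belonged to the function or regulator lists. All 20 lists together held only 106 of the 5785 nuclear genes at that level, so this says little about list genes.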

How the data were processed

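The authors deposited a table of TPM values per gene, made from read counts per gene by HTSeq, per the labels. The submitters' processing notes name CASAVA 1.8.2, Bowtie2, HTSeq and the TAIR10 build. Gene lengths, strandedness and how multiply matching reads were treated were not given in the sources used here. Unused were the 2 columns of the other genotype.

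Nuclear genes were taken as those whose identifiers do not begin with ATCG or ATMG. Names, products and exon lengths came from the RefSeq annotation of TAIR10.1, which matched 32835 identifiers. That build has another name than the authors', so no coordinates or sequences are given. TPM keeps no library size. The worth of a read was estimated from the commonest product of low TPM and annotated length. With it, 33.4% and 33.6% of 4148 and 4431 genes under 10 reads came out whole within 0.02 reads, against 4% by chance. Low genes of the same libraries set the estimate, so this excess is not independent support for it. The estimate was tested on simulated data. Total depth is unknown, and detection limits, set at 3 reads, are approximate and cover counting error only.

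Genes were called detected at 1 TPM in both libraries. Library gaps used log2(TPM + 1) for genes averaging 1 TPM or more. Named were the 30 highest nuclear genes outside ribosomal RNA, all members of lists of up to 15 genes, otherwise the 5 highest and those under 1 TPM in both libraries, the 20 highest genes annotated as transcription factors and the 10 genes furthest apart between libraries; 1 list member is not reported here. The members and the 20 lists (217 genes) were chosen with earlier results of these data known. Near-identical copies were sought with BLAST 2.17.0 at 95% identity over at least 30% of the length. Alternatives were other minimums, pseudocounts and scalings and leaving out each library. The software was Python 3.11.15 with pandas 2.3.3 and numpy 2.4.6, and matplotlib 3.10.9 for figures.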

Additional observations from a re-analysis of the deposited data

How the results depend on the processing

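With 2 libraries of 1 group, no difference was tested and each value rests on both libraries. With a minimum of 5 TPM, 7788 nuclear genes were detected, against 13297 at 1 TPM. The 100 highest genes held 37.5% of nuclear TPM without ribosomal RNA and 37.7% over protein-coding genes, against 59.0% over all nuclear genes. Genes over 2-fold apart between the libraries numbered 1459 with a pseudocount of 0.1 and 42 with a mean of at least 10 TPM, against 647. These changes follow from which genes each setting admits or how it weighs low values. Leaving out either library gave 14150 to 14455 nuclear genes detected, 92 to 93 of the 110 guard cell function genes detected (90 with both), 13129 to 13484 nuclear genes at 0, and 57.3% to 60.7% of nuclear TPM in the 100 highest genes. The function genes detected numbered 98 at 0.1 TPM, 69 at 5 TPM and 95 with TPM rescaled over nuclear genes without ribosomal RNA. Of 106 list genes averaging 10 TPM or more, 0 had ranks over 2 times apart between the libraries, and the largest ratio of ranks was 1.79. No such rank count is given for all nuclear genes at that level. Only 42 of those 5785 genes lay over 2-fold apart in level, so the list genes are not shown to be steadier than others. No paired analysis was possible because these results come from no test and a single group. Genes near the 3-read limit, MUTE and AKT5 among them, cannot be ordered at this depth, and a value of 0 says that a transcript was not detected, not that it is absent.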

Other observations

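Genes named as APS reductase, ATP sulfurylase or response to low sulphur, terms picked after their values were seen, were all well above the median nuclear gene. Other genes of sulphate assimilation were not counted, so these values do not describe the whole pathway. All 8 exceeded 10 TPM in both libraries, against 16.1% of all nuclear genes, and 5 were among the 100 highest. The median of the 8 was 704 TPM, against 0.440 TPM over all nuclear genes. APR3, an APS reductase of the reductive step of sulphate assimilation, was at 1196 and 1187 TPM. APR1 and APR2, of the same enzyme family, lay among the 100 highest too, as did the ATP sulfurylase gene APS1 and LSU2, of the low sulphur response. Of the APR2 exon length, 46.4% is overlapped by annotated genes on the opposite strand; 10.98% is shared with AT1G62170, at 0.16 and 0.10 TPM, and the other genes were not analysed here.

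Genes with ribosomal protein in their product name were also counted after the values were seen. Of 339 such genes, 264 (77.9%) reached 1 TPM in both libraries, 78 reached 10 TPM and 17 (5.01%) were at 0 in both. Their median was 5.49 TPM, and 0 were among the 100 highest. Over protein-coding genes 48.4% reached 1 TPM, 19.6% reached 10 TPM and 25.04% were at 0, with a median of 1.22 TPM. The count at 10 TPM was thus near the share of all coding genes. Together the 339 genes held 0.595% and 0.599% of nuclear TPM without ribosomal RNA. SAG24 (synonym RPL10C), whose product name does not say ribosomal, stood apart from both of its relatives: SAG24 was at 4783 and 5258 TPM, SAC52, whose synonyms name the same ribosomal protein, at 120.3 and 130.4 TPM, and RPL10B at 52.6 and 66.4 TPM. Many ribosomal proteins are encoded by several like genes, and how reads that match more than 1 gene were counted is not given in the sources used here, so the level of any single copy is uncertain.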
